A study of Mus musculus with 4 samples.

Results

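Accessible chromatin around 8 cytokine genes was described in cultured mouse natural killer (NK) cells: Csf2, Il3, Osm, Lif, Il10, Il4, Il13 and Il5. They encode effector cytokines other than interferon gamma, the cytokine for which NK cells are best known. Each accessible region was given to the protein-coding gene whose span lay nearest, and 52 of the 91266 regions of the series had one of the 8 genes as the nearest among 21900. ATAC-seq, in which a transposase inserts adapters into open DNA, had been applied to 4 samples of splenic NK cells from wild-type C57BL/6 mice, with about 75000 cells put into each reaction. In 2 samples the cells had been kept for 72 h in a high dose (HD) of interleukin-15 (IL-15) and in 2 in a low dose (LD), and the concentrations, like the age of the mice, are not given in the sources used here. The samples share genotype, strain and time, and differ by dose alone as far as the labels go.

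The deposited tables hold the positions and widths of the regions and 2 lists in which the authors put regions called up or down, but no value for a sample. The spread between replicates and the sequencing depth are therefore unknown, no value below has a replicate error, and no test of the doses was possible. Which dose was the reference is not given in the sources used here, so that the lists are called up and down as deposited. The label of the cells was checked by position: each of 9 NK cell marker genes (among them Ncr1, Eomes and Gzmb) had a region over one of its ends, whereas no region lay in or at the B cell genes Cd79a and Ms4a1 or the T cell genes Cd4 and Cd8a. Regions did lie in or at the T cell genes Cd3e and Cd3g, in or at 2 of 4 myeloid genes (Itgam and Csf1r, but not Lyz2 and Adgre1), and in or at Il7r, Gata3 and Il1rl1, genes taken to mark other innate lymphoid cells. Whether cells other than NK cells contributed to the regions described here was not tested.

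The 8 genes fall into 4 groups by function. Csf2 encodes GM-CSF and Il3 encodes interleukin-3, growth and activation factors for myeloid cells whose receptors share the beta chain Csf2rb, as does that of interleukin-5. Osm and Lif encode oncostatin M and leukaemia inhibitory factor, relatives of interleukin-6 that signal through the shared chain Il6st (gp130). Il10 encodes an anti-inflammatory cytokine that acts largely through STAT3. Il4, Il13 and Il5 encode the cytokines of type 2 immunity: interleukin-4 and interleukin-13 share the receptor chain Il4ra, and interleukin-5 drives eosinophils. T helper cells and innate lymphoid cells of type 2 are the best known sources of these last 3, and activated NK cells are known to release GM-CSF. Cytokine genes of this kind are commonly controlled by elements outside the promoter, in introns, between genes or within a neighbouring gene, which is why positions as well as numbers are given. Positions are 1-based on mm10, the build named in the submitters' processing notes, which has the coordinates of the GRCm38.p6 gene table used for names.

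Promoter sequences are shown first, to set them beside the accessible regions. RefSeq promoter windows on GRCm38.p6, from 250 bases before to 50 bases after a transcript's start, were found for 6 of the 8 genes: Lif, Csf2, Il3, Il5, Il13 and Il4, the last with 2 windows. An accessible region touched 2 of these 7 windows, those of Lif and Csf2, and covered the start itself in 0 of them. Osm and Il10 are not among these 6 genes, and Osm had a region over its lower-coordinate end, described below. Over all genes, 41.6% of 32851 windows touched a region and 39.8% had their start inside one. The sequences that touched a region follow, 5′ to 3′ on the gene's own strand, with the bases inside the region in capitals. That of Lif is chr11:4257318-4257617 on the plus strand and that of Csf2 chr11:54249850-54250149 on the minus strand.
Lif: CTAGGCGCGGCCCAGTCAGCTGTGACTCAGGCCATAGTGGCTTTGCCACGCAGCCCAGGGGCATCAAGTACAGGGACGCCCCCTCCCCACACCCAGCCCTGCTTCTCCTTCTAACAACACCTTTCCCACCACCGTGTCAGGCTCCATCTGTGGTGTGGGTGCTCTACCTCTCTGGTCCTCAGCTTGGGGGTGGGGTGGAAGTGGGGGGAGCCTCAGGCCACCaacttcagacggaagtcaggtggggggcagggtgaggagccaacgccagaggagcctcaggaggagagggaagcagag
Csf2: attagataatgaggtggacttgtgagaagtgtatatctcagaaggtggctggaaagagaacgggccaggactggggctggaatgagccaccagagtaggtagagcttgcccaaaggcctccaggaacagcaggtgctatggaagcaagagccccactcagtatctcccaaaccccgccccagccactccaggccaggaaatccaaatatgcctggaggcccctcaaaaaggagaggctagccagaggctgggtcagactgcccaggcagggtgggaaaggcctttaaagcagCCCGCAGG
At Lif the accessible part was 222 of the 300 bases and ended 29 bp short of the start. At Csf2 it was 8 bases at the far end of the window: the region began 42 bp inside the gene and ran on into the gene body, so that the bases before the start lay outside it.

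Windows without an accessible base are shown by those of Il4 and Il13, the genes on either side of a cluster of regions described below. The Il4 window is at the gene end that faces the cluster, and the Il13 window is at the end that faces away from it. The Il4 window is chr11:53618616-53618915 and the Il13 window is chr11:53634653-53634952, both on the minus strand. Capitals mark the matches to a STAT6-type motif in Il4 and to RUNX and TATA box motifs in Il13.
Il4: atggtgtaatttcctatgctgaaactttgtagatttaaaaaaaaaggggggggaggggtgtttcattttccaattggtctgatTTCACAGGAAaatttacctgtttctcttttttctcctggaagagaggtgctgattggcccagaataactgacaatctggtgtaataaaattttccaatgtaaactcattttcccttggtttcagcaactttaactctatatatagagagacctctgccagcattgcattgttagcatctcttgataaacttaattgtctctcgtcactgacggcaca
Il13: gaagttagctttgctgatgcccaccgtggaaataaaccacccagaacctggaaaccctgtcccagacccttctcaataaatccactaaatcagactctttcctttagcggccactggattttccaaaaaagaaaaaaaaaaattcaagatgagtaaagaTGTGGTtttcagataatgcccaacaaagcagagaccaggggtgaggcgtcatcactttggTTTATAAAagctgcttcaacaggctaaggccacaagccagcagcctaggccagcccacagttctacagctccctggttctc
From the starts of these transcripts the nearest region lay 6637 bp away for Il4 and 6481 bp away for Il13. The distance was 7085 bp from the other start of Il4, 2411 bp for Il3 and 11569 bp for Il5, against a median of 1321 bp over all windows. Thus 4 of the 6 genes had no accessible base in any promoter window.

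The share of promoters that touch a region rose with CpG content, and the windows of these genes held no more CpG dinucleotides than the median window. They held 7 CpGs in Lif, 6 in Il3, 4 in Il5, 3 in Il13, 3 in Csf2, and 2 and 1 in Il4, where the median of all windows was 7 (interquartile range 3 to 20). Of all windows with 2 to 3 CpGs, 8.55% touched a region. The share was 4.7% with 0 to 1, 16.7% with 4 to 6, 39.2% with 7 to 12 and 82.2% with 13 or more. Most windows in the CpG classes of Il4, Il13, Il5 and Il3 likewise touched no region.

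**Figure D1:**
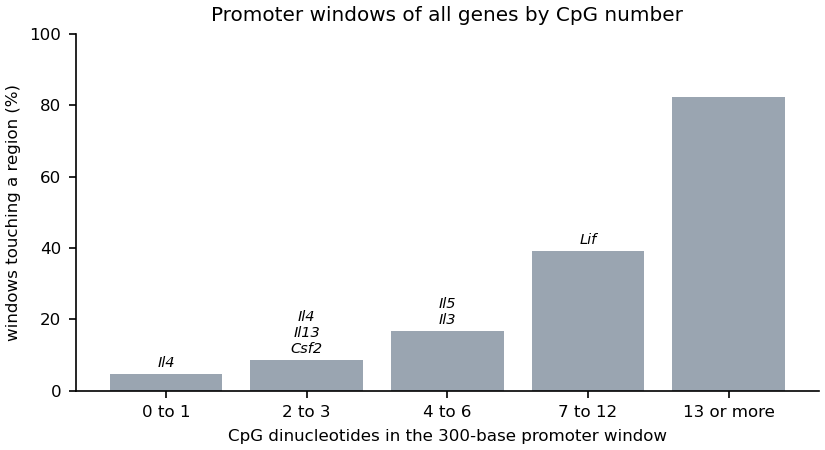
Share of the 32851 RefSeq promoter windows that touch an accessible region (vertical axis, percent), by the number of CpG dinucleotides in the 300-base window (horizontal axis). Names above a bar give the cytokine windows of that class (Il4 has 2); The 2 windows that touch a region are those of Lif, in the class where 39.2% do, and of Csf2, by 8 bases, in the class where 8.55% do.

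The windows were also searched on both strands for 9 short motifs of factors that act in lymphocytes. The letters of the AP-1 motif TGANTCA occurred in Lif, as TGACTCA at position -228 counted from the start, inside the accessible part; 7.81% of all windows hold this motif. The RUNX motif TGTGGT occurred in Lif (position -102, also inside the accessible part), Il13 and Il3, and in 16.8% of all windows. The STAT5-type motif TTCNNNGAA occurred in 1 window of Il4, as TTCATGGAA at position -4, and in 8.3% of all windows; STAT5 is the main STAT factor activated by IL-15. The STAT6-type motif, TTC and GAA with 4 free bases between them, occurred in Il4 (TTCACAGGAA at position -167) and Il3 (TTCTTCAGAA at position -6), and in 6.95% of all windows. The GATA core AGATAA was present in Csf2, Il13 and Il3 (11.2% of all windows) and the TATA box TATAAA in Il13 (13.6%), while the NFAT core GGAAA, which is short, was in all 7 windows and in 61.3% of all windows. The NFAT core overlaps each Il4 STAT match by some bases. The NF-kB motif (GGG and TTTCC with 2 free bases between them) and the CK-1-like motif of cytokine promoters matched 0 of the 7 windows, against 1.63% and 0.0396% of all. Each match is a run of letters and was not tested as a binding site.

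Across the 8 genes the 52 regions were spread unevenly. Csf2 had 15 regions, Lif 14, Il10 10, Osm 4, Il13 4, Il5 3, Il4 1 and Il3 1. Csf2 had more regions than 93.9% of protein-coding genes and Lif more than 93.3%, whereas 41.9% of genes had no more regions than Il4 and Il3. The length of DNA nearer to the gene than to any other protein-coding gene also differed, and was 68.0 kb for Csf2, 59.9 kb for Lif and 56.7 kb for Il10, against 16.6 kb for Il4. Per 10 kb of that stretch, Lif had 2.34 regions, Il13 2.34, Csf2 2.21, Osm 2.03, Il10 1.76, Il5 0.895, Il4 0.601 and Il3 0.357. The median was 0.448 (interquartile range 0 to 0.981) over 18010 genes whose neighbours do not overlap them. So 5 of the 8 cytokine genes lay above the upper quartile in density of accessible regions, Il5 and Il4 lay between the median and that quartile, and Il3 lay below the median. These ranks and densities let only protein-coding genes compete for a region. When genes of any biotype competed, Csf2 kept 1 region and Il3 kept 0. The 4 regions of Il13 stood in a single cluster, described below.

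**Figure D2:**
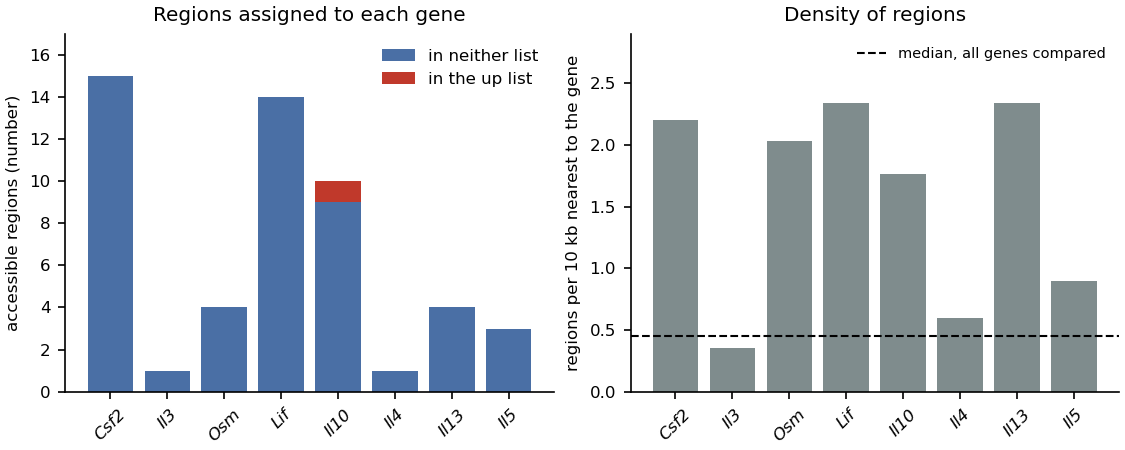
Left, number of accessible regions assigned to each gene, with the share in the authors' up list in red (1 of the 10 regions of Il10; no region is in the down list). Right, regions per 10 kb of the DNA nearest to each gene; the dashed line is the median of 18010 protein-coding genes, 0.448, and Il3, at 0.357, is the one bar below it.

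Of the 52 regions, 1 was in the authors' up list and 0 were in the down list. Among all regions 4.21% were up and 1.40% were down, 5.61% in either list. The up share of the cytokine regions was 1.92% (95% exact binomial interval 0.0487 to 10.3%) and the down share 0% (0 to 6.85%), and both intervals hold the share of all regions. These intervals cover counting error only and treat regions as independent, which neighbours are not. Since listing varies with width, all regions were also weighted to the width classes of the 52, which gave 5.29% up and 1.62% down. With 52 regions, a lower share than that of all regions was not detectable. By comparison, Ifng, the gene of interferon gamma, alone had 41 regions, of which 4 were up and 2 down; the difference was not tested.

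The up region belonged to Il10. It was 215 bp wide at chr1:131028044-131028258, outside the gene and 3074 bp beyond its higher-coordinate end, between Il10 and Mapkapk2, and overlapped no annotated gene of any biotype. Few regions of its width were up: the share was 0.726% in the width class from 198 to 234 bp, against 4.21% of all regions. Its nearest neighbour, 1682 bp away on the side of the gene, was a region of 700 bp (chr1:131025662-131026361) in neither list. The next listed region on its other side lay 113 kb away, past 18 unlisted regions, and was an up region of 237 bp assigned to Dyrk3 (chr1:131141518-131141754). On the side of Il10 itself no listed region came before a down region assigned to Cxcr4, 2237 kb from the gene. The remaining 9 regions of Il10 were in neither list. A single listed region among 10 was not unusual, since 35.5% of the 327 genes with 10 regions had an up region.

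Il10 itself held 2 regions inside the gene and none over its ends. The first was 208 bp (chr1:131021572-131021779) and the second 716 bp (chr1:131022522-131023237), the widest of the gene's 10 regions. They were separated by 742 bp and lay 1727 and 1733 bp from the nearer gene end, so that both were in the middle of the gene. With the 700 bp region beyond the end and the up region they formed a row of 4 within 6.69 kb. The other 6 regions lay farther out. On the lower-coordinate side 2 regions of 539 and 411 bp lay 8.91 and 6.96 kb away, and 3 regions of 185 to 345 bp lay between 25.8 and 32.0 kb away, in the gap of 74.4 kb that separates Il10 from Il19, a relative of Il10. On the Mapkapk2 side 1 region of 262 bp lay 13.2 kb away.

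**Figure D3:**
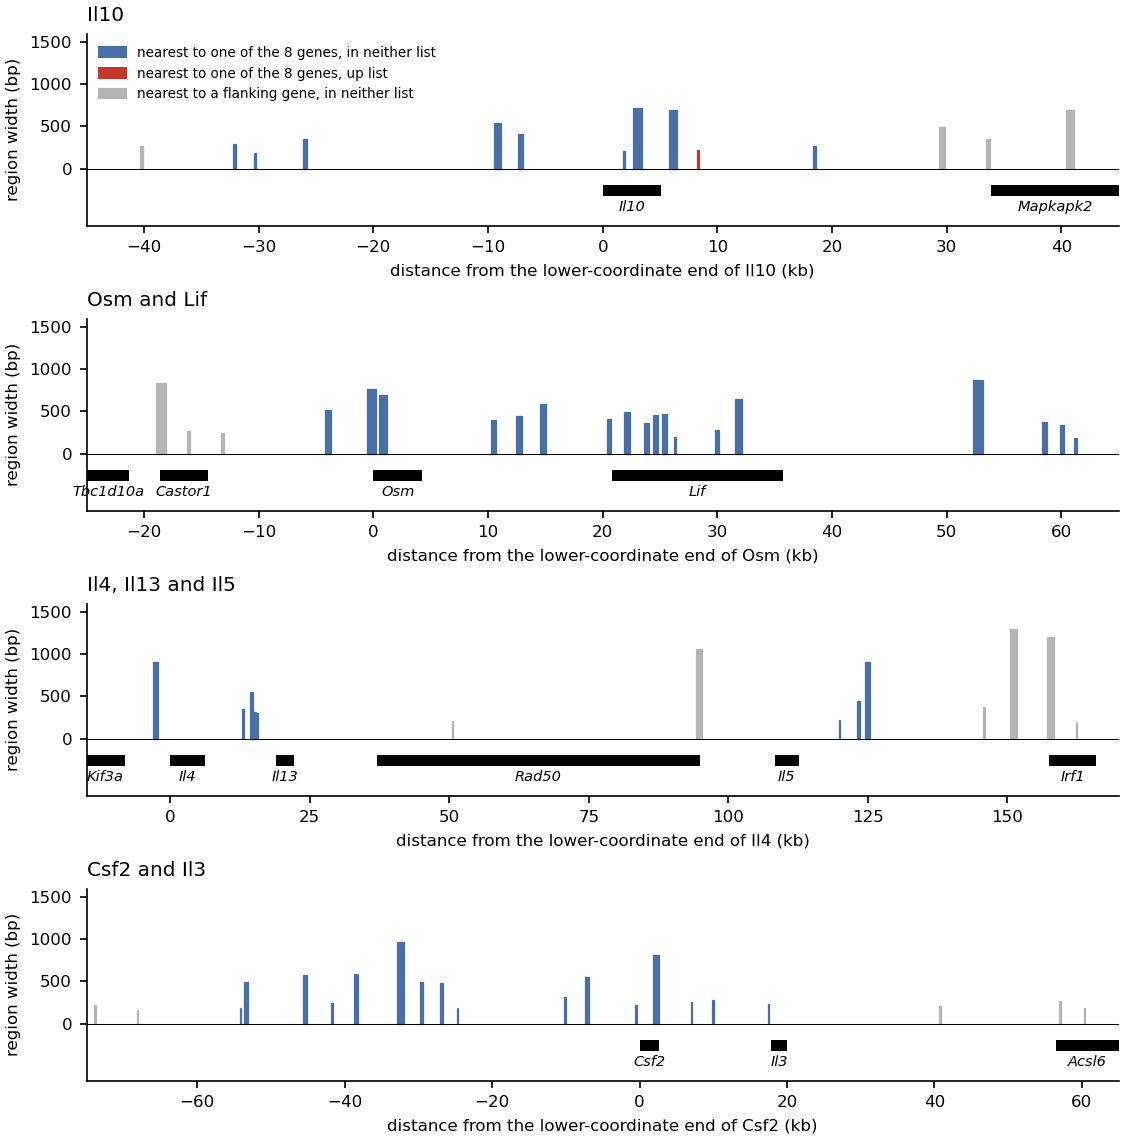
Accessible regions around the 8 genes; the horizontal axis is the distance in kb from the lower-coordinate end of the named gene and the height of each box is the width of the region in bp. Black bars are protein-coding genes, blue and red boxes are the 52 regions (red, the up region beside Il10), and grey boxes are regions nearest to a flanking gene, none of which is listed in these views.

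Csf2 had a single region in the gene, of 816 bp (chr11:54249042-54249857), which covered the part of the gene next to the start described above. A region of 215 bp (chr11:54246682-54246896) lay 374 bp past the other end. Upstream, on the Il3 side, were 2 narrow regions of 259 and 276 bp, 4.29 and 7.14 kb from the gene. The other 11 regions lay downstream, from 6.84 to 54.0 kb away, in the 116 kb gap between P4ha2 and Csf2. The widest of them, and of all 52 regions, was 963 bp at chr11:54214343-54215305, 32.0 kb from the gene. All 15 regions overlapped the long noncoding RNA gene Gm12223, whose annotated span runs past Csf2, and the 5 farthest also overlapped 4933405E24Rik. None of the 15 regions was up or down. This was common for such genes: of the 290 genes with 14 or 15 regions, 42.1% had none in either list.

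Il3, the neighbour of Csf2 on the same strand, had 1 region. It was 231 bp wide (chr11:54264638-54264868), lay 217 bp past the downstream end of the gene, on the Csf2 side, and overlapped a long noncoding RNA gene. The gap of 15.2 kb between Csf2 and Il3 held 3 regions in all, whereas the 36.5 kb from Il3 to Acsl6 held 1. Of the 16 regions of the pair 0 were listed, against 5.61% of all regions, and with so few regions a lower share was not detectable.

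Lif and Osm lie next to each other and together had 18 regions, of which 0 were listed, where 5.61% of all regions were; a count of 0 among so few is not a result about these genes. Osm was the one gene of the 8 with a region over a gene end: a region of 769 bp (chr11:4236232-4237000) covered its lower-coordinate end, followed after 305 bp by a region of 694 bp inside the gene (chr11:4237306-4237999). The other 2 regions of Osm, of 517 and 402 bp, lay 3.71 kb and 6.06 kb from the gene on either side. Osm had the highest median width of the genes with more than 1 region, 605.5 bp.

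Lif had 7 of its 14 regions inside the gene, from 196 to 642 bp wide, and with the promoter region of 411 bp (chr11:4257129-4257539) the first 5 of these made a row of 6 regions over 6030 bp, with gaps of 308 to 1286 bp. The widest inside the gene was 642 bp at chr11:4268287-4268928. Upstream, towards Osm, lay 2 more regions of 585 and 440 bp, and 4 regions lay 16.5 to 25.4 kb downstream, all within the long noncoding RNA gene Gm11958. The first of these 4 was the widest of Lif, 875 bp at chr11:4289040-4289914. The 16.5 kb between Osm and Lif held 4 regions.

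The 3 type 2 cytokine genes had 8 regions between them, 0 of them inside a gene or within 1000 bp of its ends. The 4 regions nearest to Il13 stood together between Il4 and Il13, downstream of Il13 and upstream of Il4, which are read in the same direction. They were 352, 549, 319 and 300 bp wide, occupied 2920 bp (chr11:53625302-53628221) and were separated by 1050, 158 and 192 bp. The interval between these genes is known from T cells to hold a conserved regulatory element; whether any of the 4 regions matches it was not tested. Il4 had 1 region, of 909 bp (chr11:53609345-53610253), 2.21 kb past its downstream end and on the side of Kif3a. Il5 had 3 regions, of 216, 449 and 909 bp, from 7.26 to 11.9 kb downstream, the widest at chr11:53737014-53737922 and the nearest at chr11:53732363-53732578.

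Between Il13 and Il5 lies Rad50, a DNA repair gene whose introns hold the locus control region of the type 2 cytokines in T helper cells. Rad50 had 2 regions, 1057 bp over one end and 206 bp inside the gene, 13.4 kb from the end that faces Il13 (chr11:53662922-53663127). The 14.8 kb between Il13 and Rad50 and the 13.5 kb between Rad50 and Il5 held 0 regions each. None of the regions of Rad50, Kif3a (3 regions) or Irf1 (13 regions), the genes around and within the block, was listed (5.61% of all regions were).

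The 52 regions were of ordinary width. Their median was 411 bp (interquartile range 272.5 to 561.75 bp, range 182 to 963 bp), against 400 bp (252 to 653 bp) for all regions. What they lacked was the widest class of 10, above 974 bp, which holds 9.99% of all regions and 0 of these 52. Of the 52, 12 overlapped their gene (23.1%, against 61.1% of all regions), and 1 of these 12 lay over a gene end (1.92% of the 52, against 10.8% of all regions). More than 10 kb from the gene lay 36.5% of them, against 25.4% of all regions. The 8 genes are at most 14947 bp long, and the part of gene length in these shares was not tested. The median gap between neighbouring regions of the same cytokine gene was 2202 bp over 44 gaps. Between all neighbouring regions, gaps from one gene to the next included, it was 6906 bp.

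**Figure D4:**
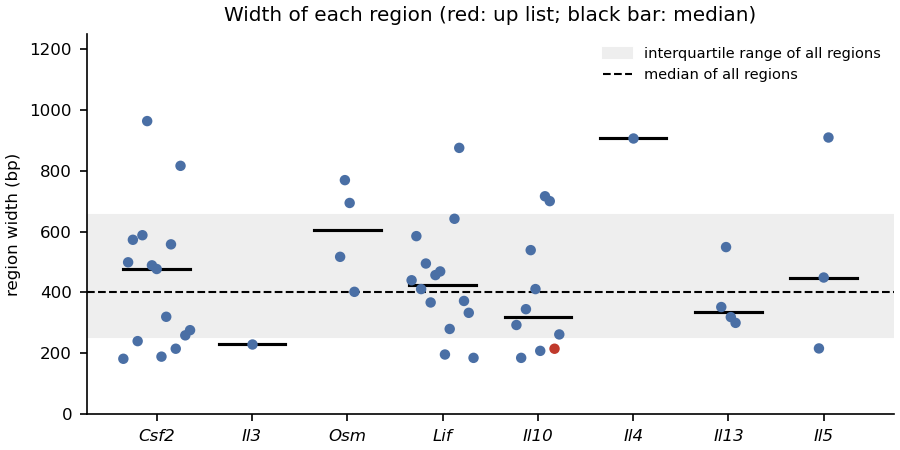
Width in bp (vertical axis) of each of the 52 regions, by gene; black bars are the medians, the grey band is the interquartile range of all 91266 regions and the dashed line their median, 400 bp. No region of these genes exceeds 963 bp, and the up region of Il10, in red, is among the narrowest, at 215 bp.

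The distance to the nearest listed region was measured for each gene. The nearest up region lay 146 kb from Il3, 163 kb from Csf2, 320 kb from Osm, 341 kb from Lif, 688 kb from Il5, 778 kb from Il13 and 794 kb from Il4. For Csf2, Il3, Il4, Il13 and Il5 it was the same region, of 281 bp inside Meikin (chr11:54413106-54413386). Over all protein-coding genes the median distance to an up region was 204 kb (interquartile range 59.95 to 547 kb), so that Il3 and Csf2 lay below the median, Osm and Lif between the median and the upper quartile, and Il5, Il13 and Il4 above that quartile. The nearest down region was between 461 kb (Il3) and 2237 kb (Il10) away, against a median of 918 kb (294 to 2153 kb) over all genes, and Il10 was the one gene of the 8 outside that range. Of the 113 regions within 100 kb of the 8 genes, 1 was listed, the up region beside Il10 (5.61% of all regions were listed).

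**Figure D5:**
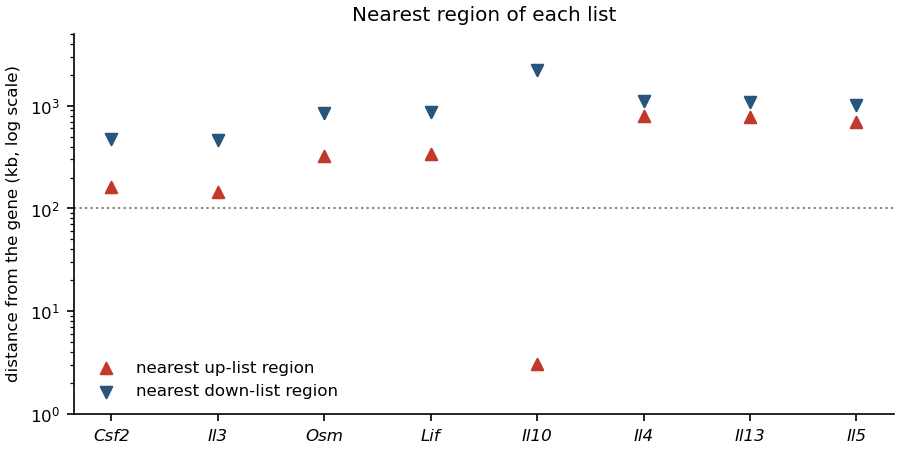
Distance in kb (logarithmic axis) from each gene to the nearest region of the up list (red, pointing up) and of the down list (blue, pointing down); the dotted line marks 100 kb. The up region 3.07 kb from Il10 is the one point under the line.

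The genes of the receptors were examined by the same rule. Of 14 receptor genes 10 had at least 1 region, 74 in all, of which 2 were up (2.70%, against 4.21% of all regions) and 4 were down (5.41%, against 1.40%). Both up regions were given to Lifr, the specific receptor chain for leukaemia inhibitory factor, which had 8 regions: 1 of 669 bp inside the gene (chr15:7092104-7092772) and 1 of 460 bp lying 104 kb away. The 4 down regions belonged to 4 genes, and whether so small a count differs from the share of all regions was not tested. Il10ra and Il10rb, the 2 chains of the interleukin-10 receptor, had 1 down region each, among 7 and 13 regions. That of Il10ra was 394 bp wide and inside the gene (chr9:45268073-45268466). That of Il10rb was 278 bp wide and lay 24.1 kb from the gene (chr16:91449905-91450182). Il4ra had 1 of 16 regions down, of 254 bp inside the gene (chr7:125578177-125578430). Il2rg, the common gamma chain that serves interleukin-4 and also IL-15, had 1 of 3 down, of 230 bp inside the gene (chrX:101265123-101265352). Osmr, Il6st, Csf2ra, Csf2rb and Il3ra had regions but none was listed, and Csf2rb2, Il5ra, Il13ra1 and Il13ra2 had 0 regions.

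Factors known to act at these cytokine genes had many regions, and the shares listed were near those of all regions. The 24 genes had 589 regions, 31 up (5.26%) and 10 down (1.70%), against 4.21% and 1.40% of all regions. Up regions were given to 10 of the genes and down regions to 7. Maf, a factor known to drive Il10 and Il4 in T cells, had the most up regions, 7 of 18, all outside the gene. Gata3, the central factor of type 2 cytokine expression, had 4 up and 2 down of 46, and Nfatc2, a calcium-regulated activator of cytokine genes, had 4 up of 27, all inside the gene. Jun had 4 up and 1 down of 44. Other factors with many regions had few or none listed: Runx1 had 2 up of 67, and Nfatc1 (38 regions), Nfil3 (19) and Fos (16) had none. Whether any of these factors differed from all regions was not tested. Stat5a, Stat5b, Stat6 and Stat3, the STAT factors downstream of IL-15 and of several of these cytokines, had 27 regions together, of which 0 were listed, against 5.61% of all regions; a lower share was not detectable with so few.

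The flanking genes were counted in the same way, and the shares of all regions to read them against are again 4.21% up and 1.40% down. Of 14 neighbours of the type 2 and Csf2 to Il3 blocks, 12 had regions, 67 in all with 0 listed. The 10 neighbours of Osm and Lif had 32 regions with 0 listed. Neighbouring regions are not independent, so these counts of 0 are not results separate from those of the cytokine genes beside them. Around Il10, 9 of 10 neighbours had regions, 42 in all, of which 1 was up (the Dyrk3 region named above) and 0 were down.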

How the data were processed

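ATAC-seq regions of 4 samples, 2 per dose, were analysed from 3 tables deposited by the authors. Positions, widths in bp and list names are the values the authors deposited; they include 0 columns of per-sample values and neither fold changes nor p-values, and the planned test of the doses, which needs such values, was not made. Per the submitters' processing notes, BWA, ArchR, MACS2 and HOMER 4.11.1 were used with mm10, with no role or order given. Pooling, thresholds and depth are not given in the sources used here.

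Deposited starts were raised by 1; all 3845 up and 1275 down regions then matched a region exactly. Distance is from the region's edge to the gene span, ties going to the nearer end. Names, lists and promoter windows came from RefSeq tables. Assignment and motif search were tested on simulated data. Intervals are exact binomial at 95% (scipy 1.17.1, Python 3.11.15). Alternatives changed the assignment, overlap rule and width summary. The members and lists were chosen with earlier results of these data known. All 8 genes are named, with each listed region, those in or near the gene, the nearest and the widest; other regions, and Meikin, were chosen after their values were seen. The list of neighbours held 1 gene of another chromosome, Ccni, which was left out. Some marker genes of other cell types are not reported here.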

Additional observations from a re-analysis of the deposited data

How the results depend on the processing

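No paired analysis was possible because the tables hold no value per sample, although both doses have replicates 1 and 2. For the same reason no other normalization or count filter, no stricter threshold and no omission of a replicate was run. In every alternative that counted regions again, 1 region of the 8 genes was up, the one beside Il10, and 0 were down. The number of regions depended on how regions are given to genes. It was 52 as reported and stayed 52 by the distance to the nearer gene end or from the region's midpoint. It fell to 29 when genes of any biotype competed, with 1 region left for Csf2 and 0 for Il3, since the regions of both genes also overlap annotated long noncoding RNA genes. Counting every region in a gene or within a set distance gave 33 at 10 kb, 75 at 50 kb and 113 at 100 kb, the last chosen after the data were seen. Within 10 kb Csf2 had 6 regions and Il4 had 5, since the 4 regions between Il4 and Il13 then count for both genes. The median width of 411 bp was 449 bp without regions under 200 bp, and the mean was 447 bp.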

Other observations

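Stretches without a listed region surrounded the cytokine genes of chromosome 11, a description made after the data were seen. From a down region assigned to Tcf7 to the up region in Meikin, 121 consecutive regions over 2103 kb, assigned to 24 genes and including all those of Il4, Il13, Il5, Csf2 and Il3, were in neither list. Around Osm and Lif the stretch held 113 regions over 1495 kb, from an up region assigned to Tcn2 to a down region assigned to Znrf3. Before the up region beside Il10, 66 unlisted regions ran back to the down region assigned to Cxcr4. Of all unlisted regions in the series, 5.03% lay in stretches of at least 121 regions, 6.36% in those of at least 113 and 19.7% in those of at least 66. Of the 4493 stretches, 30, 40 and 182 were that long.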
